A study of Mus musculus with 12 samples.

Results

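The 9 genes described here mark the primitive streak and the early mesoderm, and they were followed across 6 groups of mouse embryonic stem cell lines: Fgf8, T, Eomes, Mixl1, Evx1, Gsc, Nkx2-5, Mesp1 and Hand1. They were chosen by gene symbol, and all 9 were found among the 23354 genes that the 12 libraries share. Each group had 2 libraries. In the overexpression arm, J1 embryonic stem cells stably expressed added histone H3.1, either the wild type (H3.1WT), a form with methionine in place of lysine 9 (H3.1K9M) or a form with methionine in place of lysine 36 (H3.1K36M). In the knockdown arm they stably carried a hairpin against Suv39h1 (shSuv39h1), a hairpin against Suv39h2 (shSuv39h2) or shNC, taken here as the control hairpin. Cells of all 6 groups grew on inactivated mouse embryonic fibroblasts in medium with serum and leukemia inhibitory factor. Whether a line was a clone or a pool, and whether the libraries of a group came from separate cultures, was not given in the sources used here, so a p-value here speaks of the spread between libraries, which may be technical. No untransduced line was analysed here.

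The primitive streak is the furrow of the gastrulating embryo through which epiblast cells leave the epithelium to become mesoderm and endoderm. WNT and NODAL signals induce it, and T-box and homeobox factors then carry the program, with T and Mixl1 among its standard markers. Embryonic stem cells kept in serum can transcribe some of these genes at low levels, in a few cells or in many. RNA of a whole culture cannot tell fewer expressing cells from less RNA per cell, and this holds for every value below.

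All 15 genes of a pluripotency marker list were at 1 FPKM (fragments per kilobase of transcript, scaled to the depth of the library) or more in every library, with Pou5f1 between 627 and 1007 FPKM. Between 12126 and 12518 genes per library reached 1 FPKM, and 1 fragment was worth 0.835 to 1.10 times its FPKM value in H3.1WT replicate 1, so the libraries were of similar depth. Libraries of the same group differed most in H3.1K9M, where their log2 differences over genes had an SD of 0.41, and least in H3.1K36M and the 2 knockdowns (0.223 to 0.235). In the knockdowns, Suv39h2 fell from 4.79 ± 0.0106 FPKM in shNC to 1.68 ± 0.104 in shSuv39h2 (SD, n = 2, limma adjusted p = 0.000304), and Suv39h1 stood at 5.01 ± 0.136 in shSuv39h1 against 8.05 ± 0.743 in shNC (adjusted p = 0.0877). Fibroblast feeder markers were present in every library, with 27 or 28 of 30 at 1 FPKM or more.

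Promoter sequence is shown for T, the member with the widest range, for Evx1, which followed it, and for Mesp1. Mean Mesp1 was highest in H3.1K9M (0.847 FPKM) and lowest in H3.1K36M and shNC (0.301 and 0.434). In H3.1WT, shSuv39h1 and shSuv39h2 it lay between, at 0.676 to 0.707. The windows are the 250 bases before the RefSeq transcription start on GRCm38.p6, given 5′ to 3′ on the strand of the gene: chr17:8434173-8434422 on the plus strand for T, chr6:52313248-52313497 on the plus strand for Evx1 and chr7:79793591-79793840 on the minus strand for Mesp1. Capitals mark exact matches to the core of the T-box motif (AGGTGT, or ACACCT on the other strand), which T and Eomes bind, and of the TCF/LEF motif (CTTTGA, or TCAAAG on the other strand), through which WNT signals reach DNA.
T: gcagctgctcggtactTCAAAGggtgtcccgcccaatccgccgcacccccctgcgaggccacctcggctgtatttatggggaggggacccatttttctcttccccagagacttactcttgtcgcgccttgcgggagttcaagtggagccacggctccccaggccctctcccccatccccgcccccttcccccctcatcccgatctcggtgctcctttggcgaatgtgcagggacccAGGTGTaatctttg
Evx1: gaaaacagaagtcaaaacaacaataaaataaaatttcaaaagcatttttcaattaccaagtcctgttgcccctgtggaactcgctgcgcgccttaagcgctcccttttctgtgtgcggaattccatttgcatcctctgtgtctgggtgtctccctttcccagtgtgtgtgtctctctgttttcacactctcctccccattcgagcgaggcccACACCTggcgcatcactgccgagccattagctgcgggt
Mesp1: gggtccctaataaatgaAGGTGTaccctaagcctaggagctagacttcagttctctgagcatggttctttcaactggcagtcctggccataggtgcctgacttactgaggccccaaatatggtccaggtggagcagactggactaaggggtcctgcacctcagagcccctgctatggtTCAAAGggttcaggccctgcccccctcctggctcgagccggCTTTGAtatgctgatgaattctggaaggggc
Of all 32851 RefSeq windows of this length, 11.8% hold the T-box letters and 13.8% the TCF/LEF letters on either strand. The T window held a TCF/LEF match 234 to 229 bases before the start and a T-box match 14 to 9 bases before it. Evx1 had a T-box match at 38 to 33 bases. Mesp1 had a T-box match at 233 to 228 bases and TCF/LEF matches at 72 to 67 and at 31 to 26 bases. Among the other members with a window, Nkx2-5 had a TCF/LEF match at 184 to 179 bases, and Eomes and Gsc had none. The windows printed are thus those with a T-box match, and the window of Eomes, which also read highest in H3.1WT and H3.1K9M, is not printed. The letters TGTGGATT of the FOXH1 motif, read on both strands and present in 0.718% of windows, were in none of the 6. No matches overlapped. A window was found for 6 of the 9 members, not for Mixl1, Hand1 and Fgf8. A match of a few letters is a description of the sequence and was not tested for binding.

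For T, Mixl1, Evx1, Eomes and Fgf8, every H3.1WT and H3.1K9M library read higher than every H3.1K36M and knockdown library. In H3.1K36M against H3.1WT, 6 of the 9 members fell (limma, Benjamini-Hochberg adjusted p under 0.05), where 1.74% of the 13109 genes tested fell and 4.84% changed in either direction. None rose, where 3.1% of genes did, and the median log2 difference of the 8 tested members was −1.19, against 0.03 over all genes tested. In H3.1K36M against H3.1K9M, 7 of 9 fell, where 2.67% of genes fell, 5.57% rose and 8.24% changed in either direction, with a median of −0.79 against 0.03. Without overlap of the libraries, 8 of 9 members were lower than in H3.1WT (27.6% of genes) and 8 of 9 lower than in H3.1K9M (20.5% of genes). Both comparisons use the same H3.1K36M libraries, so they are not independent of each other. Mesp1 was under 1 FPKM in every library and was not tested. Mixl1, Evx1 and Gsc passed the filter of 1 FPKM in 2 libraries only through H3.1WT and H3.1K9M, and Nkx2-5 only through shSuv39h2. Such members were tested because 1 or 2 groups were high, so the counts and medians over tested members are descriptions and not support.

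T kept its call when any 1 library was left out of either comparison. The counts did not keep their size. Against H3.1WT the number of members that fell was 1 without H3.1K36M replicate 1 (T), 2 without H3.1K36M replicate 2 (T and Mixl1), 2 without H3.1WT replicate 2 (the same pair) and 5 without H3.1WT replicate 1. Against H3.1K9M it was 1 without either H3.1K36M library (T both times), 4 with H3.1K9M replicate 1 left out and 5 with its replicate 2 left out. Fitted with the 6 libraries of the arm alone, 4 members fell against H3.1WT (T, Mixl1, Eomes and Hand1) and 1 against H3.1K9M (T). For each member that had been called, the direction was the same in every one of these fits that tested it. Nkx2-5 was not tested in the fit with the arm alone.

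**Figure D1:**
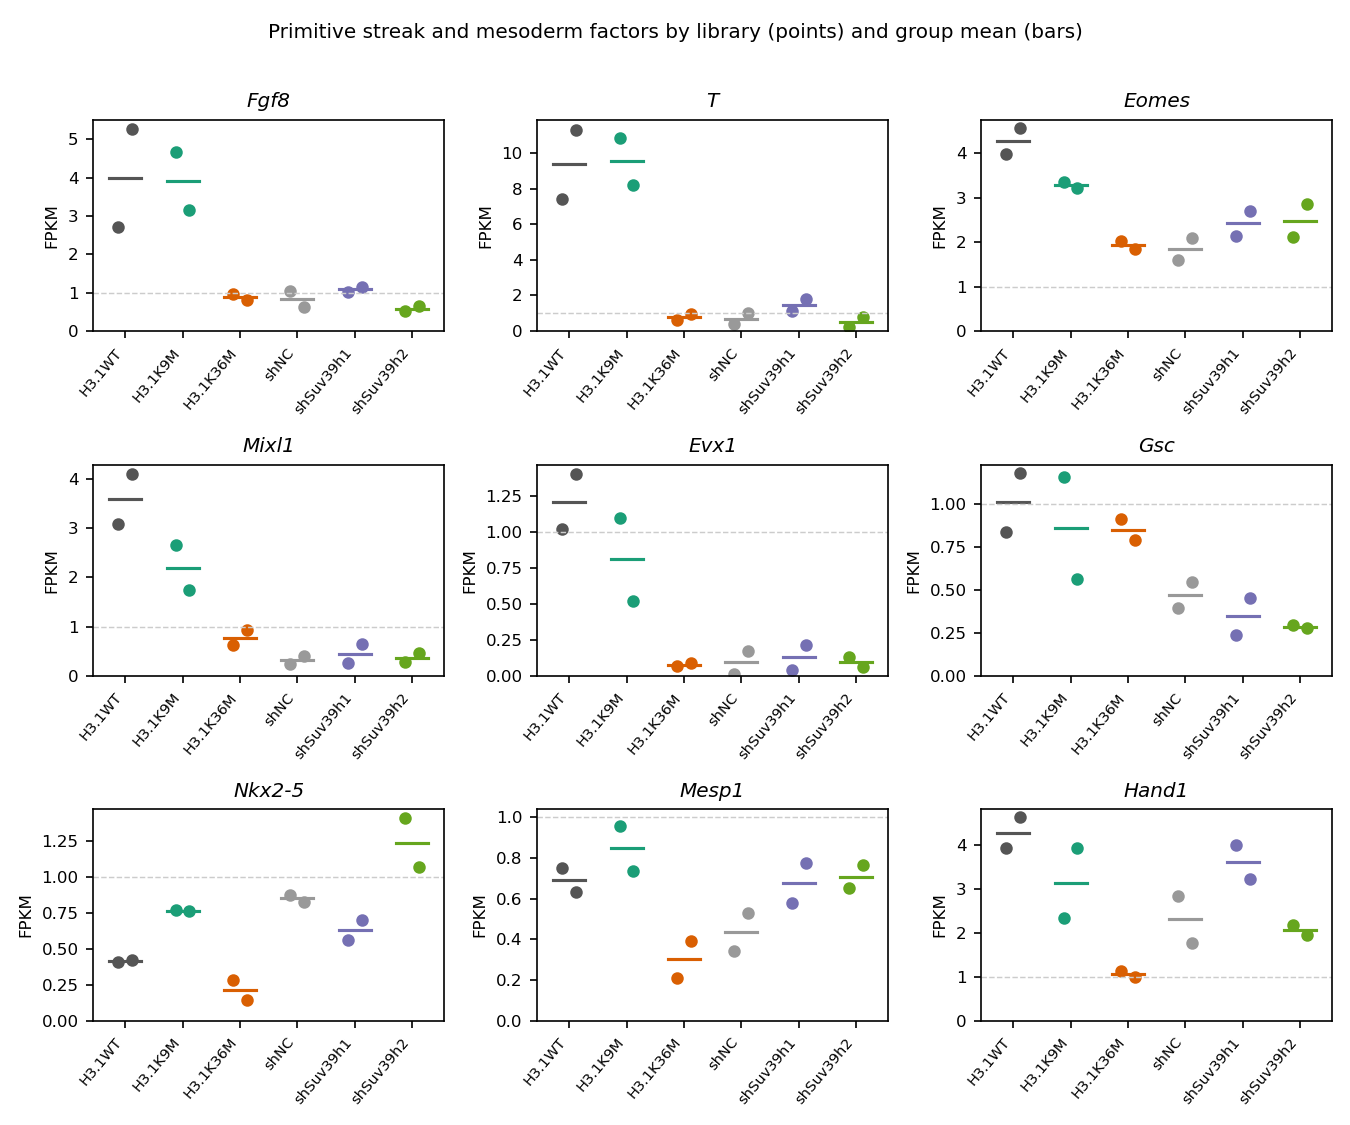
FPKM of each member (vertical axes, scaled per gene and starting at 0) in the 12 libraries, shown as points by group, with a bar at each group mean and a dashed line at 1 FPKM. T was at 7.44 to 11.3 FPKM in the H3.1WT and H3.1K9M libraries and at most at 1.79 in the 8 others, while Mesp1 stayed under 1 FPKM throughout and Nkx2-5 was highest in shSuv39h2.

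Fgf8 encodes a secreted growth factor made in the streak that cells need to move away from it (chromosome 19, 45736798 to 45742915, minus strand). Its 2 libraries read 2.72 and 5.27 FPKM in H3.1WT, 4.68 and 3.15 in H3.1K9M and 0.959 and 0.806 in H3.1K36M. In the knockdown arm they read 1.05 and 0.634 in shNC, 1.02 and 1.16 in shSuv39h1 and 0.515 and 0.652 in shSuv39h2. The H3.1WT and H3.1K9M libraries overlapped each other and lay above all others. Fgf8 fell 4.53-fold in H3.1K36M against H3.1WT (log2 difference −1.36, SE 0.24, adjusted p = 0.0123) and 4.44-fold against H3.1K9M (adjusted p = 0.00814). With the libraries of the arm alone neither call passed (adjusted p = 0.0799 and 0.0523). The annotation lists 6 transcripts. No step of whole fragments was found for the Fgf8 values, so depth cannot be given for this gene, and the reason was not tested.

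T, or Brachyury, is the T-box activator of the streak and notochord (chromosome 17, 8434423 to 8442496, plus strand). H3.1WT libraries read 7.44 and 11.3 FPKM, which the steps between values put at 353 and 524 fragments, and H3.1K9M libraries read 10.9 and 8.22 FPKM. H3.1K36M libraries read 0.643 and 0.981 FPKM, or 32 and 47 fragments. The knockdown arm was also low, with 0.372 and 1.01 in shNC, 1.10 and 1.79 in shSuv39h1 and 0.233 and 0.803 in shSuv39h2. The H3.1K36M and knockdown libraries all lay under the lowest H3.1WT library. T fell 11.5-fold in H3.1K36M against H3.1WT (log2 difference −2.50, 95% interval −3.10 to −1.89, adjusted p = 0.00113) and 11.7-fold against H3.1K9M (−2.53, adjusted p = 0.000581). From highest to lowest mean the order was H3.1K9M, H3.1WT, shSuv39h1, H3.1K36M, shNC and shSuv39h2. Neighbours in that order overlapped except H3.1WT with shSuv39h1 and shSuv39h1 with H3.1K36M.

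Eomes encodes the other T-box factor of the set, needed for mesoderm migration and definitive endoderm (chromosome 9, 118478212 to 118486132, plus strand). Its range was the narrowest, with a ratio of 2.32 between the highest and lowest group mean against 18.4 for T. H3.1WT libraries read 3.99 and 4.57 FPKM, H3.1K9M libraries 3.36 and 3.21 and H3.1K36M libraries 2.02 and 1.84. The 3 overexpression groups did not overlap. In the knockdown arm the libraries read 1.59 and 2.10 in shNC, 2.13 and 2.71 in shSuv39h1 and 2.11 and 2.85 in shSuv39h2. Eomes fell 2.22-fold against H3.1WT (log2 difference −0.85, SE 0.14, adjusted p = 0.0109) and 1.70-fold against H3.1K9M (adjusted p = 0.0459). Both calls were lost when any 1 library of the groups compared was left out, with adjusted p up to 0.131 against H3.1WT and 0.273 against H3.1K9M. An annotated antisense gene overlaps Eomes, and whether reads were counted by strand was not given in the sources used here.

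Mixl1 encodes a paired-type homeobox factor of the streak that acts in mesendoderm (chromosome 1, 180693043 to 180697034, minus strand). H3.1WT libraries read 3.09 and 4.10 FPKM, H3.1K9M libraries 2.65 and 1.74 and H3.1K36M libraries 0.621 and 0.923. In the knockdown arm the values were 0.246 and 0.398 in shNC, 0.263 and 0.638 in shSuv39h1 and 0.275 and 0.468 in shSuv39h2, or 12 to 33 fragments a library. No H3.1K36M or knockdown library reached 1 FPKM, so Mixl1 entered the test through the groups where it was high. It stepped down from H3.1WT to H3.1K9M to H3.1K36M without overlap, and the 3 knockdown groups overlapped one another. The fall was 4.66-fold against H3.1WT (log2 difference −1.37, SE 0.19, adjusted p = 0.00455) and 2.85-fold against H3.1K9M (−0.84, adjusted p = 0.0273). Against H3.1K9M the call was lost with a pseudocount of 0.1 (adjusted p = 0.0653), with array quality weights (0.122) and with the libraries of the arm alone (0.0728).

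Evx1 encodes a homeobox repressor of the posterior streak that is known as a target of WNT and BMP signals (chromosome 6, 52313498 to 52318378, plus strand). It was low throughout, at 1.02 and 1.40 FPKM in H3.1WT (70 and 94 fragments) and 1.10 and 0.523 in H3.1K9M. H3.1K36M libraries read 0.0693 and 0.0865 FPKM, which is 5 and 6 fragments, with exact 95% Poisson intervals of 0.0225 to 0.162 and 0.0318 to 0.188 FPKM that cover counting error only. H3.1WT and H3.1K9M overlapped each other and not H3.1K36M. The knockdown arm held 1 to 14 fragments a library, at 0.0160 and 0.174 FPKM in shNC, 0.0440 and 0.211 in shSuv39h1 and 0.134 and 0.0630 in shSuv39h2. The ratio of mean FPKM was 15.5 between H3.1WT and H3.1K36M, the highest among the members, and on the log2(FPKM + 1) scale the fall was 1.03 (adjusted p = 0.0101). Against H3.1K9M the ratio was 10.4 and the adjusted p 0.0304. With the libraries of the arm alone neither call passed (adjusted p = 0.0659 and 0.0914). The antisense gene Evx1os overlaps Evx1, and its reads cannot be told from those of Evx1 where strand was not used.

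Gsc encodes a homeobox repressor of the anterior streak and organizer (chromosome 12, 104471209 to 104473330, minus strand), and it did not follow T. H3.1WT libraries read 0.834 and 1.18 FPKM, H3.1K9M libraries 1.15 and 0.564 and H3.1K36M libraries 0.909 and 0.787, so the 3 groups overlapped. The knockdown arm read lower, at 0.394 and 0.543 in shNC, 0.240 and 0.453 in shSuv39h1 and 0.293 and 0.275 in shSuv39h2. Each value rests on 6 to 32 fragments. The log2 difference of H3.1K36M from H3.1WT was −0.11 with a 95% interval of −0.49 to 0.26 (adjusted p = 0.74), and from H3.1K9M 0.01 with an interval of −0.36 to 0.38. On the same scale Evx1, at a mean of 1.21 FPKM in H3.1WT, fell by 1.03 in H3.1K36M, which lies beyond the Gsc interval. The scale understates changes of low genes, and the intervals do not show that the level of Gsc was equal.

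Nkx2-5 encodes a homeobox factor of heart progenitors, which arise well after the streak (chromosome 17, 26838664 to 26845009, minus strand). Its order differed from that of T: the highest libraries were 1.41 and 1.07 FPKM in shSuv39h2, then 0.873 and 0.826 in shNC and 0.771 and 0.759 in H3.1K9M. Lower values were 0.560 and 0.699 in shSuv39h1, 0.410 and 0.420 in H3.1WT and 0.279 and 0.145 in H3.1K36M, the last from 10 and 5 fragments. No neighbours in that order overlapped. Nkx2-5 fell 3.60-fold in H3.1K36M against H3.1K9M (log2 difference −0.54, SE 0.12, adjusted p = 0.0223), and the difference of −0.23 from H3.1WT did not pass (adjusted p = 0.309). The call against H3.1K9M was lost with array quality weights (adjusted p = 0.128). No overexpression library reached 1 FPKM, so the fit with the libraries of the arm alone did not test Nkx2-5. H3.1K9M was 1.84-fold the level of H3.1WT without overlap, which did not pass either (adjusted p = 0.364).

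Mesp1 encodes the basic helix-loop-helix factor of the first mesoderm, including heart progenitors (chromosome 7, 79792241 to 79793788, minus strand). H3.1WT libraries read 0.749 and 0.632 FPKM, H3.1K9M libraries 0.959 and 0.735 and H3.1K36M libraries 0.210 and 0.393, from 5 and 9 fragments. In the knockdown arm the values were 0.340 and 0.527 in shNC, 0.576 and 0.777 in shSuv39h1 and 0.650 and 0.763 in shSuv39h2. H3.1K36M lay under both other overexpression groups without overlap, and shNC overlapped it. In a limma fit without the filter, over 20045 genes, the log2 difference of H3.1K36M was −0.38 from H3.1WT (adjusted p = 0.101) and −0.51 from H3.1K9M (adjusted p = 0.0314). In the same fit neither shSuv39h1 (0.23, adjusted p = 0.554) nor shSuv39h2 (0.25, adjusted p = 0.216) passed against shNC.

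Hand1 encodes a basic helix-loop-helix factor of lateral plate and extraembryonic mesoderm that is also made in trophoblast (chromosome 11, 57828705 to 57832818, minus strand). H3.1WT libraries read 3.94 and 4.64 FPKM, H3.1K9M libraries 2.35 and 3.94 and H3.1K36M libraries 1.13 and 0.998. Unlike T, it was well represented in the knockdown arm, at 2.85 and 1.78 in shNC, 4.01 and 3.23 in shSuv39h1 and 2.18 and 1.96 in shSuv39h2. The 5 other groups all lay above H3.1K36M, the only group that did not overlap its neighbour in the order. Hand1 fell 4.02-fold against H3.1WT (log2 difference −1.35, SE 0.20, adjusted p = 0.00646) and 2.95-fold against H3.1K9M (−0.98, adjusted p = 0.0187), the second of which did not pass with the libraries of the arm alone (adjusted p = 0.0553).

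**Figure D2:**
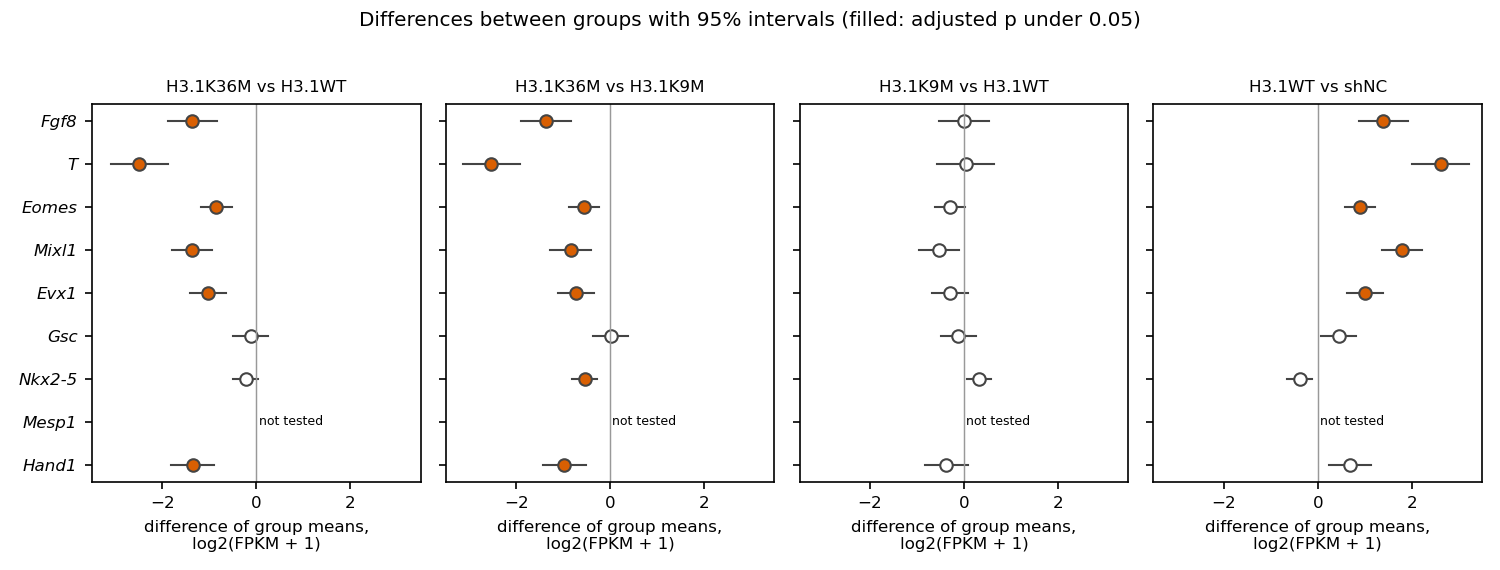
Difference of group means on the log2(FPKM + 1) scale (horizontal axes) for each member in 4 comparisons, with 95% intervals from limma; filled points had an adjusted p under 0.05 and Mesp1 was not tested. Filled points left of 0 number 6 for H3.1K36M against H3.1WT and 7 against H3.1K9M, no point is filled for H3.1K9M against H3.1WT, and 5 filled points lie right of 0 for H3.1WT against shNC.

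H3.1K9M was compared with H3.1WT, and none of the 9 members passed the limma test, where 0.313% of genes did. At an unadjusted p under 0.05 there were 2, Mixl1 at a log2 difference of −0.53 (adjusted p = 0.355) and Nkx2-5 at 0.32 (adjusted p = 0.364). For T the difference was 0.04 with a 95% interval of −0.57 to 0.64, and for Fgf8 0.01 with an interval of −0.52 to 0.53. Without overlap, 2 members were lower in H3.1K9M, Eomes at −0.30 and Mixl1 (20.6% of genes), and 1 was higher, Nkx2-5 (14.6% of genes). The differences of Evx1 (−0.30), Gsc (−0.12) and Hand1 (−0.38) came with overlapping libraries, as did the untested Mesp1. H3.1K9M replicate 1, the library highest in feeder markers, was the higher of its pair for 8 of the 9 members, all but Hand1. In shSuv39h1 the order was the reverse. There replicate 1 had the higher mean log2 level of feeder markers (3.71 against 3.27) and was the lower of its pair for all members but Hand1. In H3.1WT replicate 2 had the higher feeder level (4.11 against 3.46) and was the higher for all members but Mesp1. In shNC replicate 2 (4.09 against 3.71) was the higher for all but Hand1, Fgf8 and Nkx2-5. In shSuv39h2 replicate 1 (3.97 against 3.77) was the higher only for Evx1, Gsc, Hand1 and Nkx2-5. The feeder levels of the H3.1K36M libraries were near equal (4.50 and 4.49). The share of all genes with either order was not counted, and the part of the feeder markers was not tested.

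H3.1WT was set beside shNC to see how far the control lines of the arms differ. T was 13.6-fold higher in H3.1WT (log2 difference 2.62, SE 0.27, adjusted p = 0.00524), Mixl1 11.2-fold (1.79, adjusted p = 0.00616) and Evx1 12.7-fold (1.01, adjusted p = 0.0492). Fgf8 was 4.74-fold higher (1.40, adjusted p = 0.0492) and Eomes 2.32-fold (0.89, adjusted p = 0.0415). These 5 of 9 members were higher where 0.214% of genes were and 0.336% changed in either direction, with a median of 0.95 against 0.02 over all genes. Without overlap, 8 members were higher in H3.1WT (23.1% of genes) and 1 was lower (16.3% of genes), Nkx2-5 at 0.489 of the shNC level (adjusted p = 0.264). Gsc (0.45) and Hand1 (0.69) did not pass (adjusted p = 0.347 and 0.245), and Mesp1 was not tested. Among the markers, Krt8 was higher in H3.1WT at 55.7 against 13.5 ± 0.938 FPKM (adjusted p = 0.000532) and Krt18 at 38.8 against 13.6 ± 4.46 (adjusted p = 0.0151), with Cdx2 the 3 of 11 tested trophectoderm genes that passed, and none of 28 feeder genes or 15 pluripotency genes passed. Their part in the result was not tested. No member passed without H3.1WT replicate 2 or without shNC replicate 1, 3 passed without H3.1WT replicate 1 and 4 without shNC replicate 2. The largest adjusted p for T among these was 0.0742. Whether the arms were scaled together upstream is not known, and the arm, with its vector and any difference in handling, cannot be told apart from the group.

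Set beside shNC, the H3.1K36M level was not low for every member. The libraries overlapped for T, Evx1, Eomes, Mesp1 and Fgf8. H3.1K36M was the higher for Mixl1 and Gsc and the lower for Hand1, at 1.07 against 2.32 FPKM, and Nkx2-5, at 0.212 against 0.849. These are descriptions across arms, with no test. Over all genes tested, 23.2% were lower in both H3.1K36M libraries than in both shNC libraries and 40.9% were higher.

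The knockdowns moved no member past the test. Against shNC, 0 of 9 passed in shSuv39h1, where 0.145% of genes did, and 0 of 9 in shSuv39h2, where 10% did. At an unadjusted p under 0.05 there was 1 in each, Hand1 in shSuv39h1 at a log2 difference of 0.49 (95% interval 0.04 to 0.95, adjusted p = 0.436) and Nkx2-5 in shSuv39h2 at 0.27 (0.01 to 0.53, adjusted p = 0.182). T was at 2.10 times the shNC level in shSuv39h1 without overlap, a difference of 0.55 with an interval of −0.06 to 1.15, and at 0.751 times in shSuv39h2. Without overlap, 4 members were higher in shSuv39h1 than in shNC (26.8% of genes) and 1 lower (12.7%), and 3 were higher in shSuv39h2 (29.5%) and 1 lower (21.3%). The members higher in shSuv39h1 were T, Eomes, Mesp1 and Hand1 and the lower one was Nkx2-5. In shSuv39h2 Eomes, Mesp1 and Nkx2-5 were higher and Gsc was lower. Libraries of Mixl1, Evx1 and Fgf8 overlapped shNC in both knockdowns, with log2 differences between −0.21 (Fgf8 in shSuv39h2) and 0.19 (Fgf8 in shSuv39h1). Between the knockdowns 0 of 9 passed, where 6.56% of genes did, and 3 had an unadjusted p under 0.05. Without overlap, 3 were higher in shSuv39h1 (30% of genes), T, Hand1 and Fgf8, and 1 was lower (28.7%), Nkx2-5. Mixl1, Evx1, Eomes, Gsc and Mesp1 overlapped. The 3 by p were Nkx2-5, lower in shSuv39h1 by a log2 difference of −0.45 (adjusted p = 0.0508), T, higher by 0.70 (adjusted p = 0.168), and Hand1, higher by 0.59 (adjusted p = 0.125). Nkx2-5 passed that comparison with no filter, with quantile normalization, with median-of-ratios scaling and with array quality weights, and Hand1 passed with the last.

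The rest of the pathway was read from lists of 126 genes by role, of which 91 were tested. In H3.1K36M against H3.1WT 8 of the 91 fell (1.74% of all genes) and 2 rose (3.1%), with a median of 0.06 against 0.03 over all genes. Of 21 signals and receptors tested, Wnt3, the ligand that starts the streak, fell from 3.15 ± 0.273 to 1.54 ± 0.261 FPKM (SD, n = 2, adjusted p = 0.0187) and Wnt8a from 1.74 ± 0.0752 to 0.488 ± 0.175 (adjusted p = 0.0135), while Fgf4, an autocrine signal of stem cells, rose from 29.8 to 47.7 (adjusted p = 0.0331). None of 7 tested inhibitors passed, and Lefty2, an antagonist of NODAL, read 174 against 107 FPKM (adjusted p = 0.149).

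Among 21 tested signal-dependent factors and direct targets, Lef1, the nuclear partner of β-catenin, fell from 11.4 ± 0.988 to 1.79 ± 0.0324 FPKM (adjusted p = 9.59e-05) and Sp5, a direct WNT target, from 5.22 ± 0.485 to 1.72 ± 0.136 (adjusted p = 0.000427). Tcf7l1, the TCF factor that represses WNT targets in stem cells, rose from 15.3 to 23.6 (adjusted p = 0.0479). Of 9 further streak and node factors tested, Otx2 fell from 16.4 ± 0.12 to 1.82 ± 0.208 FPKM (adjusted p = 4.69e-05) and Cdx2, a caudal homeobox factor of the posterior streak and of trophectoderm, from 3.45 ± 0.917 to 0.184 ± 0.0636 (adjusted p = 0.000172).

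Few genes of later steps passed. Of 11 tested genes of the epithelial to mesenchymal transition, Epcam, an epithelial adhesion molecule, fell from 60.2 to 38.0 FPKM (adjusted p = 0.025). Cdh1, the E-cadherin gene, read 134 against 118 (adjusted p = 0.343). Zeb1 and Fn1 also read higher without passing, at 4.49 against 2.47 and 462 against 340 FPKM (adjusted p = 0.0836 and 0.333). None of 10 tested genes of paraxial mesoderm passed. Dll1, a Notch ligand, read 1.92 against 4.21 ± 1.79 FPKM (adjusted p = 0.354), and Dll3 read higher, at 6.19 against 4.67 (adjusted p = 0.142). Of 12 tested genes of lateral plate, heart and blood, Gata4 fell from 1.54 to 0.748 (adjusted p = 0.0331). Etv2, a factor of blood and endothelial progenitors, read 2.32 against 4.98 (adjusted p = 0.0684). Gata2 and Smarcd3 read higher, at 1.42 against 0.844 and 5.80 against 4.30 FPKM (adjusted p = 0.116 and 0.143).

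**Figure D3:**
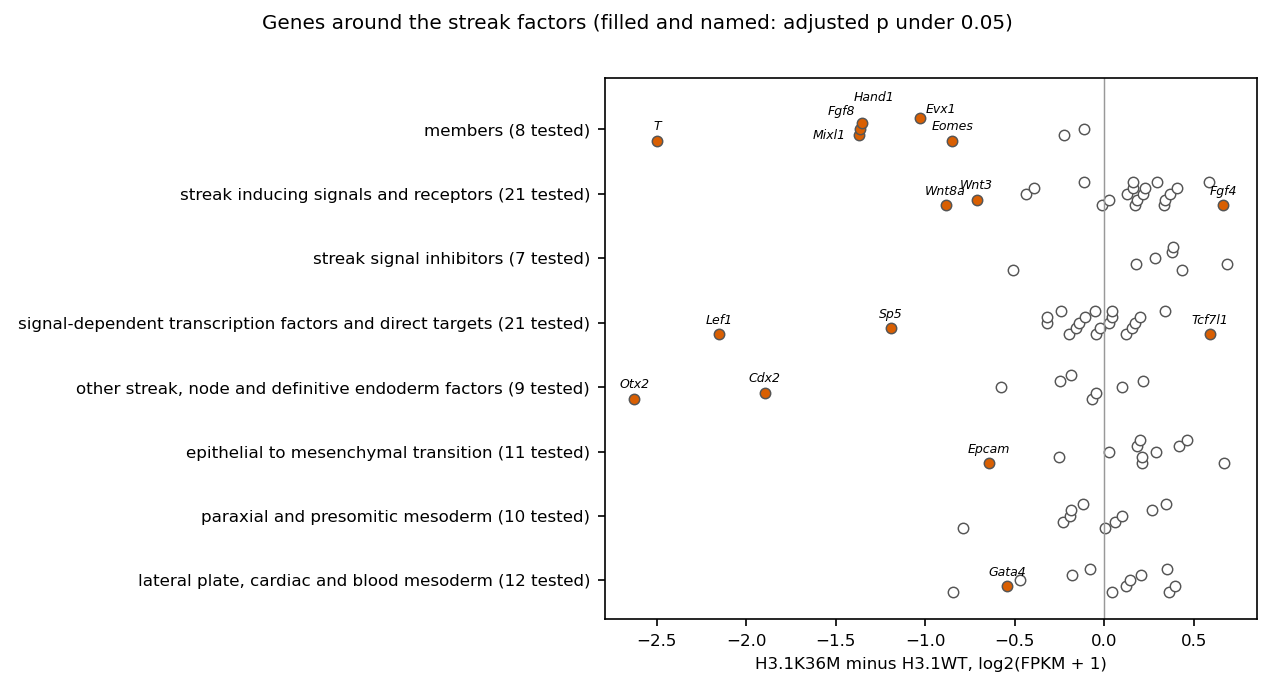
Difference of H3.1K36M from H3.1WT on the log2(FPKM + 1) scale (horizontal axis) for every tested gene of the members and of 7 lists by role; filled, named points had an adjusted p under 0.05. The 6 members that fell and Lef1, Sp5, Otx2 and Cdx2 lie to the left, while most genes of each list lie within 0.5 of 0.

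Against H3.1K9M, 9 of the 91 tested pathway genes fell in H3.1K36M (2.67% of all genes) and 6 rose (5.57%). Lef1 fell to 1.79 from 10.7 ± 2.56 FPKM (adjusted p = 7.78e-05), Sp5 to 1.72 from 4.69 ± 0.153 (adjusted p = 0.000494) and Cdx2 to 0.184 from 2.82 ± 0.105 (adjusted p = 0.000267). Fzd7, a WNT receptor, fell to 12.3 from 23.9 (adjusted p = 0.0061), and the secreted WNT antagonists Sfrp1 and Sfrp5 rose (adjusted p = 0.02 and 0.0245). H3.1K9M differed from H3.1WT in 1 of the 91, Otx2, which read 7.96 ± 2.17 against 16.4 ± 0.12 FPKM and fell (adjusted p = 0.0465).

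In H3.1WT against shNC 3 of the 91 pathway genes passed, all higher: Sp5 at 5.22 against 1.22 ± 0.163 FPKM (adjusted p = 0.000585), Cdx2 at 3.45 against 0.155 ± 0.0947 (adjusted p = 0.00077) and Lef1 at 11.4 against 5.58 ± 0.62 (adjusted p = 0.0454). In shSuv39h2 against shNC 7 of the 91 rose and 5 fell, near the background of 10% of all genes changed. Those that fell included Sfrp2, Myl7, Tnnt2 and Myh6, a myosin heavy chain gene, the last from 4.55 ± 0.0123 to 1.68 ± 0.318 FPKM (adjusted p = 0.000924). Gata4, a heart and endoderm factor, rose there from 1.26 to 2.53 (adjusted p = 0.00996), as did Tcf15, Cdx1, Id1, Etv4, Foxh1 and Lrp5. In shSuv39h1, Etv4, an FGF target, was the pathway gene that passed, at 61.0 against 43.7 FPKM (adjusted p = 0.0451). Between the knockdowns 5 pathway genes were higher in shSuv39h1 and 5 lower.

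The genes with the pattern most like that of T over the 12 libraries were Cdx2 (Pearson r = 0.970 on the log2(FPKM + 1) scale), Sp5 (0.965), Amot (0.949), Psmb10 (0.947) and Cyp26a1 (0.943). Those most like the members' mean z score were Cyp26a1 (0.983), Cdx2 (0.982), Vrtn (0.972), Zfp608 (0.955) and Sp5 (0.953). Cyp26a1, which encodes an enzyme that degrades retinoic acid, averaged 4.27 ± 0.865 FPKM in H3.1WT and 3.00 ± 0.0407 in H3.1K9M against 0.739 ± 0.081 in H3.1K36M and 1.06 to 1.15 in the knockdown arm. These correlations are descriptions over 12 libraries that for all of these genes fall into a high and a low set. Among the members, T correlated with Fgf8 at 0.964, with Evx1 at 0.943 and with Mixl1 at 0.942 over the 12 libraries. Over the 6 knockdown libraries alone the values were 0.522, 0.488 and 0.753. T and Nkx2-5 had −0.233 over all 12, 0.781 in the 6 overexpression libraries and −0.744 in the 6 knockdown libraries.

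**Figure D4:**
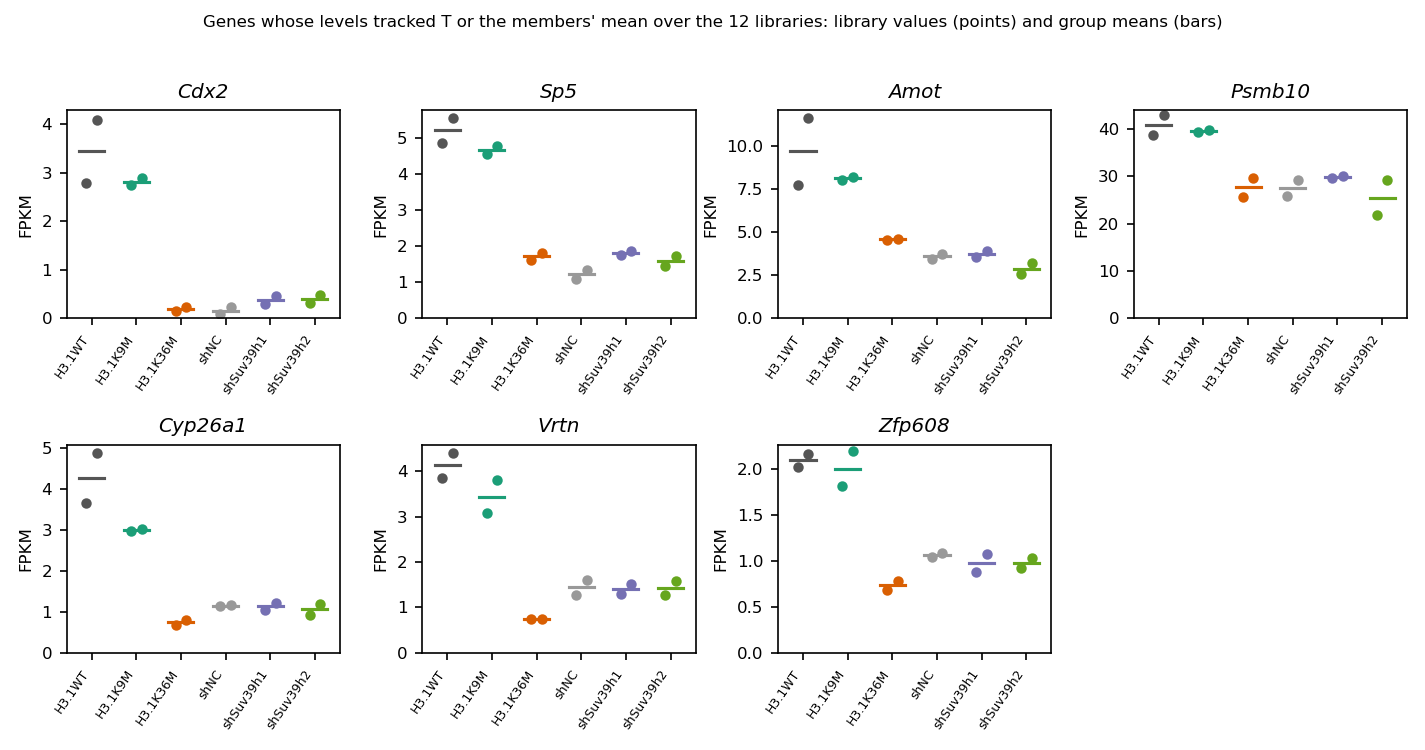
FPKM (vertical axes, starting at 0) of the 7 genes whose levels were most like T or the members' mean over the 12 libraries, as points by library and bars at the group means. In each panel the H3.1WT and H3.1K9M libraries lie above all H3.1K36M and knockdown libraries, as for T.

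Markers of other cell types also differed in H3.1K36M, some falling as the members did and others rising. The feeder list had a mean log2 level of 4.50 and 4.49 in H3.1K36M against 3.46 and 4.11 in H3.1WT and 4.80 and 4.03 in H3.1K9M, and 3 of 28 tested feeder genes rose against H3.1WT, Postn, Col3a1 and Col6a2. With that mean as a covariate, the same 6 and 7 members fell in H3.1K36M. The slope of the covariate rests on differences between the 2 libraries of a group, which were near 0 in H3.1K36M. This fit is therefore no test of the part of the feeder cells. Of 11 tested trophectoderm genes 3 fell against H3.1WT and 2 rose. Krt8 fell from 55.7 ± 1.94 to 5.42 ± 0.0993 FPKM (adjusted p = 1.18e-05) and Krt18 from 38.8 ± 0.62 to 5.78 ± 0.0249 (adjusted p = 0.000133). The summed level of the list was 192 and 187 FPKM in H3.1WT against 85.0 and 79.6 in H3.1K36M. That sum follows the keratins, the highest genes of the list in H3.1WT, with Krt19 at 29.3 against 58.5 FPKM. Tead4 rose from 5.40 to 8.28 FPKM (adjusted p = 0.0109), and Tfap2c read 19.8 against 13.3, so the list did not fall as a whole. The placental marker Tpbpa was at 0 in both groups. Of 10 tested primed epiblast genes 4 fell, Otx2, Lef1, Pou3f1 and Grhl2, with a summed level of 127 and 128 FPKM in H3.1WT against 98.0 and 98.8 in H3.1K36M. This list did not fall as a whole either. Sox3, Foxd3 and Sall2 read higher in H3.1K36M without passing, at 4.06 against 3.01, 9.28 against 7.67 and 2.62 against 2.04 FPKM. Dnmt3b averaged 49.1 FPKM in both groups. Otx2, Lef1 and Cdx2 stand in the pathway lists too. Of 11 tested genes of primitive and visceral endoderm Lama1 and Amn rose and Gata4 fell, and of 7 tested neuroectoderm genes Tubb3 rose. Of 15 pluripotency genes 2 rose, Nanog from 192 ± 10.7 to 376 ± 3.39 FPKM (adjusted p = 0.0129) and Tfcp2l1 from 17.7 to 33.8 (adjusted p = 0.00534). The others did not pass and went both ways. Pou5f1 read lower, at 634 against 781 FPKM (adjusted p = 0.0848), as did Tdgf1, at 258 against 350. Esrrb read higher, at 154 against 113 (adjusted p = 0.0953). Against H3.1K9M 7 of 15 pluripotency genes rose, among them Nanog from 123 ± 18.5 to 376 ± 3.39 FPKM (adjusted p = 0.000512), Tfcp2l1, Fbxo15 and Tbx3. There 4 of 11 trophectoderm genes fell and 2 rose, with Krt8 at 5.42 against 46.8 ± 11.3 FPKM and Krt18 at 5.78 against 33.7 ± 7.67, and 4 of 10 primed epiblast genes fell. None of 28 feeder genes passed against H3.1K9M, while 2 of 11 endoderm and 2 of 7 neuroectoderm genes rose. The part of the feeder, trophectoderm, epiblast, endoderm, neural and pluripotency markers in the members' fall was not tested.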

How the data were processed

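RNA-seq of 12 libraries, 2 in each of 6 groups, was analysed from tables of FPKM per gene that the authors deposited. Per the submitters' processing notes, TopHat2 2.0.13 and Cuffdiff 2.2.1 were used with mm10; strandedness was not given in the sources used here. From there, log2(FPKM + 1) was taken for the 13109 genes that reached 1 FPKM in 2 or more libraries and fitted with limma 3.58.1 (R 4.3.3), with a trend and 1 mean per group over all 12 libraries, in 7 comparisons. Adjusted p-values are two-sided and Benjamini-Hochberg corrected over all genes tested, and a gene was called at 0.05. A fold is a ratio of mean FPKM; a log2 difference understates the change of low genes. An exact permutation test of 2 against 2 libraries cannot go below p = 0.333 and was not used. Fragments were recovered from the steps between FPKM values for 7 of 9 members, within 0.104 of a whole number, and not for Eomes and Fgf8. Intervals on fragments cover counting error only. The script was tested on simulated data.

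The members and lists were chosen with earlier results of these data known. The members were named whatever their result. From each other list, genes were named chiefly from the 4 with the smallest p, but not all of these were named. Some further genes, such as Krt19, Tfap2c and Sox3, were named to show how the rest of a list read. Alternatives changed the pseudocount, the filter, the scaling, the weights, the covariates and the libraries used. Promoter windows came from RefSeq (GRCm38.p6) and gene positions from GENCODE on GRCm38.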

Additional observations from a re-analysis of the deposited data

How the results depend on the processing

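In H3.1K36M against H3.1WT, H3.1K36M against H3.1K9M and H3.1WT against shNC, 6, 7 and 5 members were called. They kept their direction in every alternative run that tested them. With a filter of 5 FPKM the counts were 1, 1 and 1, since T was the only member left to test. In H3.1WT against shNC the count was 2 with no filter, 3 with median-of-ratios scaling and 2 with array quality weights. In H3.1K36M against H3.1WT it was 4 with the libraries of the arm alone, without Evx1 and Fgf8. In H3.1K36M against H3.1K9M it was 3 with array quality weights and 1 with the libraries of the arm alone. Between the knockdowns it rose from 0 to 1 with no filter, with quantile normalization and with median-of-ratios scaling, and to 2 with array quality weights. Leaving out 1 library gave 1 to 5, 1 to 5 and 0 to 4 members in the 3 comparisons. Over all genes, the number called moved by more than 1.5 times in every comparison under at least 1 alternative, and over all alternatives, left-out libraries included, it ran from 58 to 2983 in H3.1K36M against H3.1WT (634 as reported), from 209 to 1882 in H3.1K36M against H3.1K9M (1080) and from 1 to 696 in H3.1K9M against H3.1WT (41). It ran from 0 to 24 in shSuv39h1 against shNC (19), from 358 to 2183 in shSuv39h2 against shNC (1316), from 76 to 2103 between the knockdowns (860) and from 7 to 162 in H3.1WT against shNC (44).

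Deviations of same-numbered libraries were correlated between some groups, but not with the same sign. Over 15 pairs of groups the correlation ran from −0.384 (H3.1WT with H3.1K9M) to 0.517 (H3.1K9M with shSuv39h1). With a replicate block the counts were 6, 7 and 3.

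Differences that changed sign were all of members that had not passed. With quantile normalization they were, for H3.1K9M against H3.1WT, Fgf8 at −0.0079, for H3.1K36M against H3.1K9M, Gsc at −0.015, for shSuv39h2 against shNC, T at 0.027 and Gsc at 0.058, and for shSuv39h1 against shSuv39h2, Mixl1 at −0.12, Evx1 at −0.16 and Gsc at −0.14. Median-of-ratios scaling put Gsc at −0.015 in H3.1K36M against H3.1K9M. The feeder covariate gave T −0.21 and Fgf8 −0.29 in H3.1K9M against H3.1WT, Gsc −0.016 in H3.1K36M against H3.1K9M and Gsc 0.012 in shSuv39h1 against shNC. With 1 library left out, the ranges were −0.24 to 0.31 for T, −0.37 to 0.38 for Fgf8 and −0.25 to 0.11 for Gsc in H3.1K9M against H3.1WT, and −0.22 to 0.057 for Gsc in H3.1K36M against H3.1K9M. In shSuv39h1 against shNC they were −0.064 to 0.31 for Mixl1 and −0.065 to 0.15 for Evx1. In shSuv39h2 against shNC they were −0.43 to 0.12 for T, −0.050 to 0.15 for Mixl1, −0.10 to 0.11 for Evx1 and −0.33 to 0.14 for Hand1. Between the knockdowns they were −0.12 to 0.26 for Mixl1, −0.073 to 0.14 for Evx1, −0.18 to 0.13 for Eomes and −0.051 to 0.18 for Gsc. The cause was not tested. Depth limits the low members: values of Evx1 rested on 1 to 94 fragments and those of Gsc on 6 to 32.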
